A study of Homo sapiens with 18 samples.

Results

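The libraries labelled ACTB-mut were compared with the libraries labelled Actin KO, to ask which RNA levels differ when Actin KO cells are given the H73A form of actin. The comparison used 6 of the 18 libraries of the series, 3 a side, chosen by their labels, and 13882 of 60683 gene rows had enough counts to be tested. All libraries were poly(A)-selected RNA of HCT-116, a human cell line from a colorectal carcinoma that was cultured in DMEM plus fetal bovine serum. Actin KO cells carried an empty construct and ACTB-mut cells stably expressed the H73A mutant of actin on the same Actin KO background. Another 3 libraries, ACTB-WT, carried wild-type actin on that background, and this group stayed in the fit and is set beside the result where it helps. The labels do not say whether Actin KO was 1 clone or a pool, which promoter drove the constructs, or whether the 3 replicates were separate cultures, so p-values measure the spread between these libraries, which may be technical.

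Beta-actin, the product of ACTB, is a cytoplasmic actin that builds the filaments of the cell cortex and stress fibres, and it is also a subunit of chromatin remodelling complexes such as BAF. The methyltransferase SETD3 adds a methyl group to a histidine of actin, and H73A replaces that histidine with alanine, so this form cannot carry the mark. Unpolymerised actin binds the MRTF coactivators, which together with SRF switch on many cytoskeletal and adhesion genes when they are released.

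Total counts were 7512656 to 8774607 in Actin KO and 7919495 to 11271910 in ACTB-mut. The median coefficient of variation between replicates, counting error left out, was 15.4% for genes above 100 CPM (counts divided by the library's total in units of 1000000, scaled by TMM), 28.6% at 10 to 100 CPM and 88.9% at 1 to 5 CPM, so small changes of rare RNAs were not detectable. HCT-116 epithelial markers were present, with 11 of 12 above 1 CPM and a summed level of 8330 to 11674 CPM in Actin KO and 9899 to 10737 CPM in ACTB-mut. Of the markers of other cell types, 6 of 10 fibroblast genes, 4 of 10 blood genes, 2 of 10 neural genes and 7 of 10 liver and kidney genes had no count, and no tested one was called. Above 1 CPM were 3, 2, 6 and 2 of them. The neural genes, mostly TUBB3, summed to 92.1 to 110 CPM in Actin KO and 104 to 133 CPM in ACTB-mut. Libraries stood apart in 2 measures. Actin KO replicate 3 and ACTB-mut replicate 1 lay at opposite ends of a trend with GC content, and ACTB-mut replicate 3 had the largest share of mitochondrial counts (1.61%, against 0.739% to 0.874% in Actin KO and 1.10% and 0.910% in the other ACTB-mut libraries).

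The targeted gene was read first. ACTB is annotated at GRCh38 chromosome 7, 5527147 to 5563784, minus strand, under ENSG00000075624. Its level was 16.7, 24.9 and 14.9 CPM in Actin KO replicates 1 to 3 and 47.1, 32.04 and 43.00 CPM in ACTB-mut. The groups did not overlap, and the log2 change was 1.11 (SE 0.28, adjusted p = 0.093), which missed the threshold. With ACTB-WT at 31.02, 29.2 and 23.2 CPM, neither add-back showed a large rise of ACTB RNA, so the groups are called here by their labels. The counts cover the annotated gene and do not separate the native locus from a construct. ACTG1, the other cytoplasmic actin, went from 7356 ± 403 to 6452 ± 617 CPM (n = 3 each; log2 difference -0.19, adjusted p = 0.398). The level of SETD3 was 18.3, 17.4 and 13.5 CPM in Actin KO against 29.9, 32.7 and 32.98 CPM in ACTB-mut (log2 difference 0.96, adjusted p = 0.278), and SMARCA4, the ATPase of BAF that the series title names, went from 182 ± 22.3 to 156 ± 28.9 CPM (log2 difference -0.23, adjusted p = 0.678).

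In ACTB-mut the matrix glycoprotein SPARC, the apolipoprotein APOC1, the actin-fibre scaffold PDLIM5 and the peroxidase PRDX1 rose, with log2 changes of 1.70, 5.42, 1.69 and 1.41. The endosomal sorting gene HGS, the kinase ARAF, the histone methyltransferase EHMT2, the neuropeptide precursor VGF and the interferon-stimulated genes IFI27, IFI6 and OAS3 fell, with log2 changes of -2.31, -3.05, -1.70, -1.91, -3.03, -2.15 and -1.59. The test called 128 of 13882 genes (0.922%), 45 higher (0.324%) and 83 lower (0.598%) in ACTB-mut. The test was edgeR's quasi-likelihood F test with Benjamini-Hochberg adjustment over all tested genes, two-sided, and a gene was called at an adjusted p below 0.05. At an unadjusted p below 0.05 there were 1597 genes. Of the called genes 61 changed by at least 2-fold, 20 higher and 41 lower, and 121 were protein coding. In each of the 128 the 3 libraries of one group lay wholly above those of the other, a separation that 9.31% of tested genes showed upwards and 9.16% downwards. With 1 library left out 34 to 77 genes were called, and 34 was the count without Actin KO replicate 3. Of the 128 genes 28 were called in all 8 fits, that is without change, with the GC and length offsets described next and with each of the 6 libraries left out, and 28 others lost the call in all 6 of the last.

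The fold changes followed the GC content of the genes. Across the 13745 tested genes with a known GC content of exons the log2 change correlated with it at Pearson's r = -0.17 (Spearman's rho = -0.24), and across the 3828 genes above 32 CPM at r = -0.34 (rho = -0.36), a fall of 0.16 log2 units for each 10 percentage points of GC. Genes are not independent replicates, so no p is given. The 3828 genes were put in 10 bins of like size by GC content. In the bin with the least GC (29.9% to 42.4%) the median log2 change was 0.20, it was near 0 at 48.6% to 51.4%, and it was -0.19 and -0.18 in the last pair of bins (60.6% to 73.8%). The called genes lay along the same slope: those called higher had a median GC content of 47.7% and those called lower of 58.8%, against 49.4% for all tested genes and 54.03% for those above 32 CPM. In the 5 bins with the most GC 9 genes were called higher and 55 lower, and in the 5 with the least 29 and 14.

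The trend differed between single libraries. Set against the mean of the 6 libraries, the correlation with GC content was 0.04, 0.16 and 0.40 in Actin KO replicates 1 to 3 and -0.33, -0.19 and -0.08 in ACTB-mut replicates 1 to 3. The groups did not overlap, but the spread inside each was wider than the gap between their nearest members. All 9 pairs of an ACTB-mut with an Actin KO library had a negative r, from -0.42 (ACTB-mut 1 against Actin KO 3) to -0.07 (ACTB-mut 3 against Actin KO 1). Same-numbered pairs had an r of -0.23, -0.22 and -0.30 in replicates 1 to 3. Pairs inside a group reached 0.29 (Actin KO 3 against Actin KO 1), so a trend of that size also arose between replicates. Without Actin KO replicate 3 the r above 32 CPM was -0.25 and without ACTB-mut replicate 1 it was -0.27. Above 32 CPM, r was -0.03 in ACTB-WT against Actin KO, and -0.05 and -0.03 in the SETD3 KO1 and KO2 lines against their control. Exon length showed a weaker trend (r = -0.17 with log2 length).

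**Figure D1:**
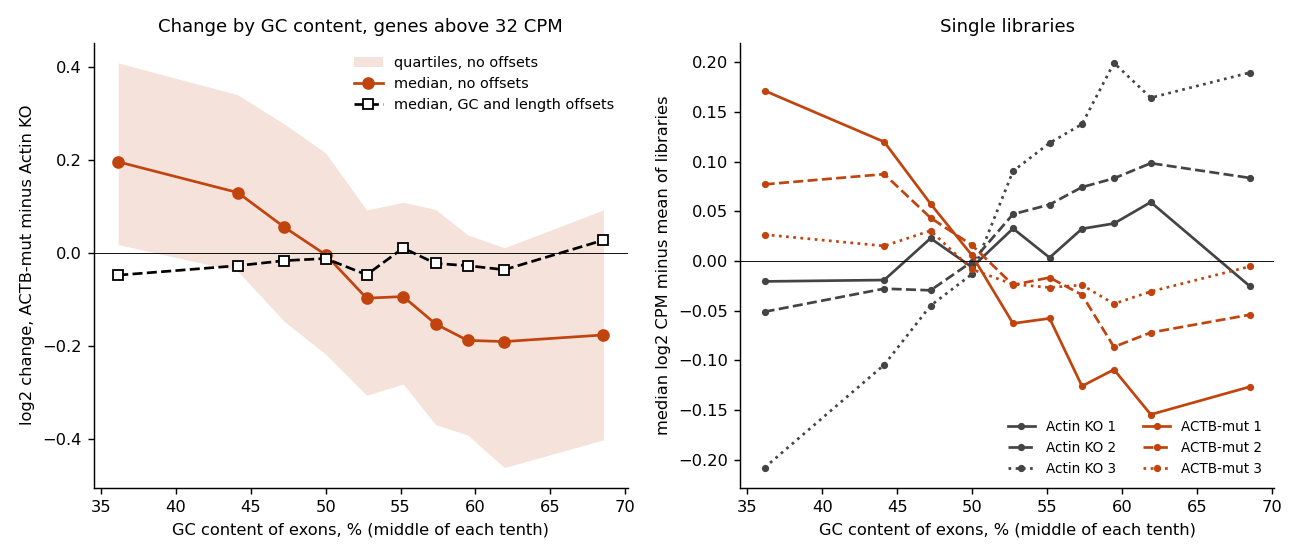
Left, the median log2 change of ACTB-mut against Actin KO by exon GC content, in 10 bins of like size, in the 3828 genes above 32 CPM, with quartiles, without offsets (filled) and with GC and length offsets (open). Right, the median of each single library minus the mean of the 6. The median falls from 0.20 to -0.18 without offsets and stays within 0.05 of 0 with them, and Actin KO 3 and ACTB-mut 1 are the outermost lines in most bins.

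A second fit removed the trend by giving each library a smooth offset for GC content and exon length. It called 98 genes (0.706% of those tested), 44 higher and 54 lower. The calls shared with the fit without offsets were 74 (28 higher and 46 lower), and the r above 32 CPM became 0.04. All 128 genes kept their direction, which was largely fixed since their libraries did not overlap between the groups. Of the 128, 109 had a smaller change than without offsets. The median GC content of called genes was then 56.3% for the higher and 56.9% for the lower. Values with these offsets are given below wherever they end a call or move a list.

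Of the 28 genes called in all 8 fits, 8 were higher in ACTB-mut. SPARC, a secreted matrix-binding glycoprotein, had 242, 163 and 201 CPM in the 3 Actin KO libraries and 693, 724 and 549.9 CPM in ACTB-mut, a log2 change of 1.70 (SE 0.19, adjusted p = 9.10e-04). APOC1, an apolipoprotein of very low density lipoproteins, had 1.86, 0.246 and 0.342 CPM in Actin KO and 30.00, 34.9 and 39.6 CPM in ACTB-mut (log2 difference 5.42, SE 0.71, adjusted p = 0.00159), the largest rise among genes that reached 5 CPM. In ACTB-WT (1.12% of tested genes called against Actin KO) SPARC was lower, at 42.6, 27.01 and 24.4 CPM, and APOC1 had 1.19, 6.58 and 3.49 CPM, which missed the threshold (adjusted p = 0.178). PDLIM5, a PDZ and LIM domain scaffold of actin fibres, had 26.3, 49.2 and 44.2 CPM in Actin KO and 138, 123 and 125 CPM in ACTB-mut (log2 difference 1.69, SE 0.21, adjusted p = 0.00114), with ACTB-WT at 148, 128 and 121 CPM, which overlapped ACTB-mut. PRDX1, a peroxidase that removes hydrogen peroxide, rose from 79.2, 85.6 and 77.5 CPM to 184, 218 and 242 CPM (log2 difference 1.41, SE 0.20, adjusted p = 0.00333). CFD, complement factor D, rose from 165 ± 13.95 to 314 ± 6.10 CPM (log2 difference 0.93, adjusted p = 0.00138), MDK, the growth factor midkine, from 331 ± 38.3 to 566 ± 26.7 CPM (log2 difference 0.77, adjusted p = 0.0042), and TMA7, a small protein linked to translation, from 542 ± 19.6 to 906 ± 84.1 CPM (log2 difference 0.74, adjusted p = 0.00499). Both CFD and MDK were also called higher in ACTB-WT, by 0.94 (adjusted p = 5.45e-04) and 0.87 (adjusted p = 7.32e-04), a comparison that shares the Actin KO libraries. Ribosomal protein gene RPL31 is the other of the 8 and is described with its list.

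The largest rises beyond those 8 each lost the call in at least 1 fit with a library left out. Such fits called fewer genes in general, 34 to 77 against 128, so a lost call does not show that a rise rested on the library left out. USP34, a deubiquitinase, had 3 counts over the 3 Actin KO libraries and 158 over ACTB-mut, a ratio of 43.9 (exact 95% counting interval 14.7 to 215), and its call was lost in 5 of 6 leave-one-out fits (adjusted p up to 0.102). S100A2, a calcium-binding protein of epithelia, rose from 39.8 ± 12.6 to 101 ± 7.94 CPM (log2 difference 1.35, adjusted p = 0.00729) and lost the call without Actin KO replicate 3 (adjusted p = 0.0545). In ACTB-WT it was called higher too, by 1.00 (adjusted p = 0.0357). SUN1, which links the nuclear lamina to the cytoskeleton, rose from 10.9, 8.84 and 6.28 CPM to 22.6, 23.3 and 37.04 CPM (log2 difference 1.67, adjusted p = 0.0278) and lost the call with any 1 library left out. Its span overlaps GET4 on the same strand (35.01 ± 7.41 to 70.9 ± 12.4 CPM, not called), so reads of the pair could be split between them. The transcript AC073896.3 (from 9.58 ± 0.732 to 29.4 ± 2.18 CPM) lost the call with offsets and with any library left out.

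Of the 28, 20 were lower in ACTB-mut. HGS, the ESCRT-0 subunit that sorts ubiquitinated receptors on endosomes (GRCh38 chromosome 17, 81683326 to 81703138, plus strand), had 269, 264 and 329 CPM in Actin KO and 50.1, 70.2 and 54.04 CPM in ACTB-mut. The log2 change was -2.31 (SE 0.17, adjusted p = 6.59e-06), and ACTB-WT stayed at 218, 277 and 226 CPM. AC139530.1, annotated on the opposite strand over the end of HGS, had 110.1, 74.03 and 10.8 CPM in Actin KO and 155, 139 and 228 CPM in ACTB-mut (log2 change 1.42, adjusted p = 0.57). The strand setting is not given in the sources used here, so reads of the pair cannot be told apart, and the sum of both went from 352 to 232 CPM. ARL16, which overlaps the start of HGS on the other strand (log2 difference 0.04, adjusted p = 0.973), and MRPL12, a neighbour of HGS (log2 difference 0.12, adjusted p = 0.791), were not called. Of 29 tested ESCRT and endosomal sorting genes HGS was the only one called, with a list median of -0.06.

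ARAF, a RAF kinase of the ERK cascade (GRCh38 chromosome X, 47561100 to 47571920, plus strand), had 27.6, 36.6 and 30.9 CPM in Actin KO and 6.56, 1.40 and 3.42 CPM in ACTB-mut (log2 difference -3.05, SE 0.46, adjusted p = 0.00499), with ACTB-WT at 25.3, 25.9 and 15.9 CPM. It was the only called gene of 21 tested members of the ERK pathway and its feedback targets, whose median was 0.05. EHMT2, a histone H3 lysine methyltransferase, had 136, 124 and 168 CPM in Actin KO and 55.2, 31.4 and 45.4 CPM in ACTB-mut (log2 difference -1.70, SE 0.20, adjusted p = 9.39e-04). VGF, a secreted neuropeptide precursor, fell from 453, 423 and 464 CPM to 146, 97.03 and 113 CPM (log2 difference -1.91, SE 0.16, adjusted p = 3.29e-05), and FOSL1, an AP-1 subunit, from 309.9, 299 and 334 CPM to 173, 145 and 148 CPM (log2 difference -1.02, SE 0.13, adjusted p = 0.00158). LY6D, a surface protein of stratified epithelium, was low in both groups, at 3.45, 3.31 and 2.85 CPM in Actin KO and 0.962, 1.10 and 0.507 CPM in ACTB-mut (log2 difference -1.85, adjusted p = 0.00773), while ACTB-WT stood at 153, 186 and 176 CPM. NTSR1, the neurotensin receptor, fell from 144 ± 19.9 to 54.1 ± 3.76 CPM (log2 difference -1.41, adjusted p = 0.00114), and NACC1, a BTB domain transcriptional regulator, from 123 ± 23.4 to 53.8 ± 7.12 CPM (log2 difference -1.19, adjusted p = 0.00499). TRIM8, a ubiquitin ligase, fell by 1.10 and the hydrolase ABHD14B by 0.90 on the log2 scale. The spans of NACC1 and ABHD14B overlap other genes, none of them called, so their reads may be shared. PTBP1, a splicing regulator, had 978, 996 and 1003 CPM in Actin KO against 595, 630.1 and 594 CPM in ACTB-mut (log2 difference -0.71, adjusted p = 0.0016), and with offsets its log2 change was -0.46 (adjusted p = 0.035).

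**Figure D2:**
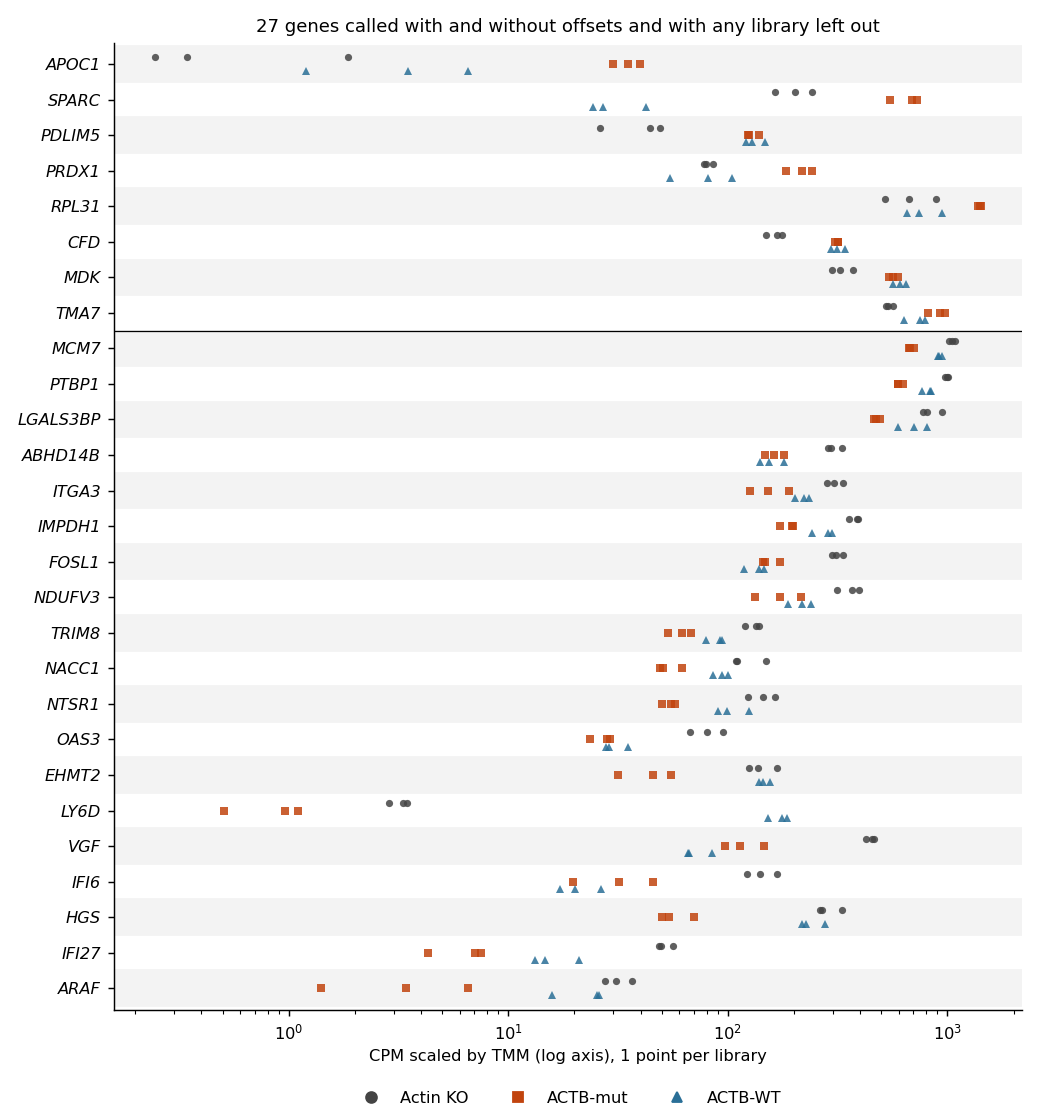
Levels in single libraries (CPM scaled by TMM, log axis) of 27 of the 28 genes called without offsets, with GC and length offsets and with any 1 of the 6 libraries left out, with the 8 higher genes above the line. In each row the 3 ACTB-mut squares lie wholly to one side of the 3 Actin KO circles. ACTB-WT triangles lie with Actin KO for EHMT2, with ACTB-mut for PDLIM5, CFD and MDK, and outside both for SPARC and LY6D.

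Other large falls among genes that reached 5 CPM were not called in all 8 fits. AGPAT4, an acyltransferase of phospholipid synthesis (log2 difference -3.54, adjusted p = 0.031), KLC2, a kinesin light chain (log2 difference -2.88, adjusted p = 0.0401), ICA1 (log2 difference -2.32, adjusted p = 0.0298), UBXN7 (log2 difference -2.13, adjusted p = 0.0486), EVL, an Ena/VASP actin polymerase (log2 difference -1.94, adjusted p = 0.0222), and POLM, a DNA repair polymerase (log2 difference -1.88, adjusted p = 0.0141), each lost the call in at least 4 of the 6 leave-one-out fits. On the other strand AP001107.7 overlaps KLC2 and AC007009.1 overlaps ICA1, neither called, and with reads of each pair not told apart the sums went from 17.4 to 10.8 and from 32.1 to 20.03 CPM. With offsets KLC2 did not pass (adjusted p = 0.0649). LAMA5, a laminin chain of basement membranes, had 22.8, 17.2 and 10.7 CPM in Actin KO and 2.54, 3.19 and 5.07 CPM in ACTB-mut (log2 difference -2.23, adjusted p = 0.0222). It was not called with offsets (adjusted p = 0.0598), and the abundant ADRM1 overlaps it on the other strand.

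Interferon-stimulated genes had the lowest median of the lists with 10 or more tested members. The gene lists were chosen with earlier results of these data known, so their counts and ranks are description and not a test. Among all tested genes 0.598% were called lower, and among the 3831 tested above 32 CPM 69 were. Of 50 listed interferon-stimulated genes 37 were tested, 0 rose and 7 fell, and 32 of the 37 log2 changes were negative. Their median log2 change was -0.45, against 0.03 over all tested genes, and -0.59 with GC and length offsets, where 7 fell as well. The libraries did not overlap in 12 of the 37 downwards and in 1 upwards, against 9.16% and 9.31% of all tested genes. Of all 13882 tested genes 7225 had a positive change. IFI27, an interferon-induced mitochondrial protein, had 56.5, 49.7 and 48.4 CPM in Actin KO and 7.08, 4.29 and 7.48 CPM in ACTB-mut (log2 difference -3.03, SE 0.32, adjusted p = 4.66e-04). IFI6, an antiviral protein of the endoplasmic reticulum, had 140.1, 122 and 168 CPM in Actin KO and 32.01, 19.8 and 45.7 CPM in ACTB-mut (log2 difference -2.15, SE 0.27, adjusted p = 0.00138). OAS3, which makes the oligoadenylates that activate RNase L, had 67.5, 94.8 and 79.9 CPM in Actin KO and 28.95, 23.5 and 28.03 CPM in ACTB-mut (log2 difference -1.59, SE 0.22, adjusted p = 0.00264). These 3 genes were called in all 8 fits, each with its ACTB-mut libraries at less than the lowest Actin KO library.

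Another 4 members fell by less. ISG15, a ubiquitin-like modifier, went from 2084 ± 255 to 1332 ± 187 CPM (log2 difference -0.65, adjusted p = 0.0135), IFITM3, which blocks viral fusion, from 1549.5 ± 62.00 to 821 ± 227 CPM (log2 difference -0.92, adjusted p = 0.0148), and ADAR, the RNA editing enzyme, from 189 ± 20.5 to 106 ± 17.9 CPM (log2 difference -0.83, adjusted p = 0.0151). LGALS3BP, a secreted galectin-binding glycoprotein, fell from 843 ± 89.1 to 476 ± 14.5 CPM (log2 difference -0.82, adjusted p = 0.0042) and was called in all 8 fits, whereas ISG15, IFITM3 and ADAR lost the call without 2 or 3 of the single libraries. IRF9 (log2 difference -2.15, adjusted p = 0.0777) and IRF7 (log2 difference -2.02, adjusted p = 0.201), factors of interferon signalling, had negative changes that missed the threshold. In ACTB-WT, which shares the Actin KO libraries and had 0.677% of tested genes called lower, the list median was -0.88, IFI6 stood at 20.1, 26.5 and 17.3 CPM and OAS3 at 27.8, 35.2 and 28.8 CPM, and neither differed between the add-backs beyond the threshold (adjusted p = 0.393 and 0.844). IFI27 was higher in ACTB-WT (20.9, 13.2 and 14.6 CPM) than in ACTB-mut (difference -1.36, adjusted p = 0.0466; 0.0639 with offsets). Leaving out 1 library moved the list median between -0.60 and -0.40. The 17 tested MHC class I antigen presentation genes had a median of -0.28 with 0 called.

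**Figure D3:**
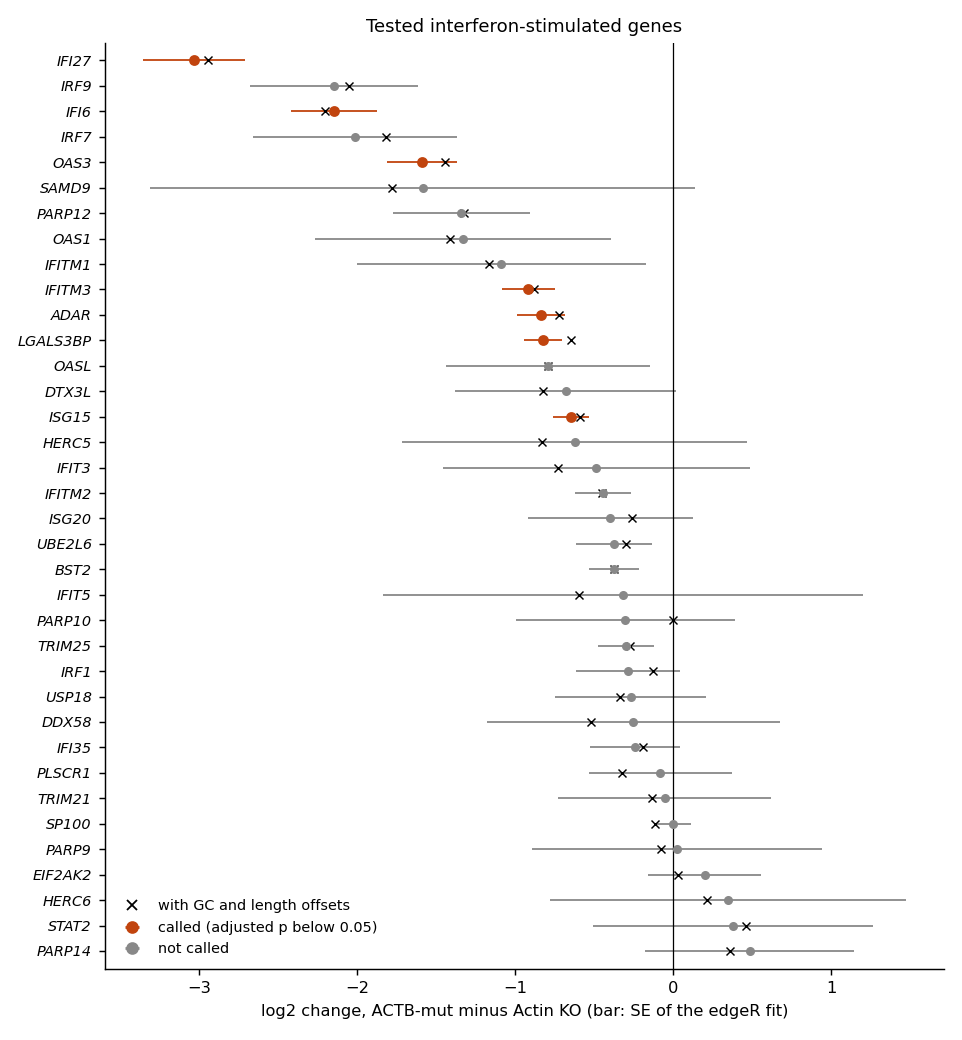
Log2 change of ACTB-mut against Actin KO for 36 of the 37 tested interferon-stimulated genes with the SE of the edgeR fit, called genes in colour, and the value with GC and length offsets as a cross. Points lie mostly left of 0, from IFI27 at -3.03, and the crosses stay close to the points.

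The upstream sequence of 4 of the fallen interferon genes is shown because interferon is known to act on such genes through a repeated GAAA element, bound by the factor ISGF3. The 250 bases before the RefSeq start (GRCh38.p14, gene strand, 5′ to 3′) are printed, with each match to GAAANNGAAA, searched on both strands, in capitals. IFI27 lies at chr14:94110486-94110735, plus strand, IFI6 at chr1:27672193-27672442, minus strand, OAS3 at chr12:112938224-112938473, plus strand and ISG15 at chr1:1013247-1013496, plus strand.
IFI27: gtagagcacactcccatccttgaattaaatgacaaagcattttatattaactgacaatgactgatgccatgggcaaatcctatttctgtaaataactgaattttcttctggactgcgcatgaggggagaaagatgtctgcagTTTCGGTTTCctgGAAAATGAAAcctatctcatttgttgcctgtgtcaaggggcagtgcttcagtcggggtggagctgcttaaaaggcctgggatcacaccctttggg
IFI6: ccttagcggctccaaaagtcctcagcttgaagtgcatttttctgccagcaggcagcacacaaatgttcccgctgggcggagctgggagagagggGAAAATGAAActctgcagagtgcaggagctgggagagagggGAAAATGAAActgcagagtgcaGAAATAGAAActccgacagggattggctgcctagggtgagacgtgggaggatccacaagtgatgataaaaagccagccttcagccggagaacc
OAS3: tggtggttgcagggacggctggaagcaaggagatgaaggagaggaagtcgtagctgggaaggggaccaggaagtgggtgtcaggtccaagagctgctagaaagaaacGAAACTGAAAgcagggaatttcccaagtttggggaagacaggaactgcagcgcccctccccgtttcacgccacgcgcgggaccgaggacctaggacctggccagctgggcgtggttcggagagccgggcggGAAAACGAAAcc
ISG15: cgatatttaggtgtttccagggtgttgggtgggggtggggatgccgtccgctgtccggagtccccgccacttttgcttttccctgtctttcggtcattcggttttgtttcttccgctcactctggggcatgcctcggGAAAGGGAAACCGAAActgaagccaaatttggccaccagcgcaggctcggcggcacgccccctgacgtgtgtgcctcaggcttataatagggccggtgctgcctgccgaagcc
The match occurred in the 250 bases of 3.07% of the 27305 promoters in the RefSeq table and of 2.12% of the 9723 tested genes that matched it by symbol. Of the 7 fallen interferon genes 6 held at least 1 match, and of the 30 tested list members with a promoter 16 did. Among all called genes with a promoter, 6 of 68 lower genes and 1 of 26 higher genes held one. The 6 lower genes are the same 6 interferon genes, and no other fallen gene held a match. The list is one of interferon genes to begin with, so the share within it describes the list and not the change. In IFI27 the start of the first match lay 108 bases before the start site and in ISG15 2 matches overlapped each other. ADAR held no match, which says only that these letters are not in this window.

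Calls were more frequent among abundant genes, with 38 of the 3831 tested above 32 CPM called higher and 69 lower. Of 16 tested SRF-MRTF cytoskeletal targets 0 rose and 3 fell, where 0.324% of all tested genes were called higher and 0.598% lower, the background also of the list counts that follow. The 3 were FLNA, the actin crosslinker filamin A, from 767 ± 62.4 to 420.1 ± 102 CPM (log2 difference -0.87, adjusted p = 0.0122), CNN2, a calponin, from 537 ± 1.60 to 359 ± 23.5 CPM (log2 difference -0.58, adjusted p = 0.0137), and MYH9, non-muscle myosin IIA, from 272 ± 37.9 to 162 ± 14.9 CPM (log2 difference -0.75, adjusted p = 0.0136). Each missed the threshold with GC and length offsets (adjusted p = 0.121, 0.0687 and 0.126). The median of the list, whose genes have a median GC content of 58.0%, went from -0.18 to -0.07. TAGLN, a classical MRTF target, was not called (log2 difference 1.49, adjusted p = 0.266). Of 41 actin assembly factors 3 fell without offsets and 1 with them, EVL. FSCN1, which bundles filaments in filopodia, went from 349 ± 10.03 to 246 ± 19.97 CPM (log2 difference -0.51, adjusted p = 0.0387), which missed the threshold with offsets (adjusted p = 0.4), and CTTN, cortactin, from 103 ± 18.2 to 56.8 ± 5.64 CPM (log2 difference -0.86, adjusted p = 0.043; 0.117 with offsets). Among 19 LIM-domain stress-fibre proteins PDLIM5 rose and ZYX, zyxin of focal adhesions, fell from 434, 460.0 and 494 CPM to 154, 205 and 263 CPM (log2 difference -1.16, adjusted p = 0.0104), and both remained called with offsets. With single libraries left out, FLNA and ZYX lost the call without Actin KO replicate 3 only (adjusted p = 0.0673 and 0.0545), MYH9 without Actin KO replicate 2 or ACTB-mut replicate 1, and CNN2, FSCN1 and CTTN without any of at least 5 of the 6.

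Of 14 tested integrin chains 0 rose and 2 fell, ITGA3 and ITGB4, which pair with other chains into laminin receptors of epithelia. ITGA3 went from 305, 282 and 336 CPM in Actin KO to 152, 126 and 190.1 CPM in ACTB-mut (log2 difference -0.98, SE 0.15, adjusted p = 0.00529) and ITGB4 from 235, 204 and 229 CPM to 96.8, 109 and 135 CPM (log2 difference -0.97, SE 0.17, adjusted p = 0.0121). Both remained called with offsets (adjusted p = 0.0326 and 0.0486), ITGA3 in all 8 fits and ITGB4 in 2 of the 6 leave-one-out fits. The list median was 0.11. Of 41 focal adhesion components 3 fell, FLNA, ZYX and CAV1, with a median of -0.24 that became -0.10 with offsets. CAV1, the caveolar coat protein, went from 165 ± 13.8 to 97.7 ± 3.46 CPM (log2 difference -0.75, adjusted p = 0.0217) and TIMP1, an inhibitor of matrix proteases, from 650.4 ± 81.1 to 456 ± 24.6 CPM (log2 difference -0.51, adjusted p = 0.0486). CAV1 lost the call with any 1 library left out, and TIMP1 in 5 of 6 such fits and with offsets (adjusted p = 0.0649). No member of the 29 cell-cell junction genes, 17 YAP-TAZ targets, 15 TRiC chaperonin and prefoldin genes or 27 BAF subunits was called, with medians of -0.04, 0.06, 0.11 and -0.11.

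Cytosolic ribosomal protein genes had mostly small positive changes. Of 82 tested, 7 rose and 0 fell, against 0.324% of all tested genes called higher. The change was positive in 59 of the 82, against 7225 of all 13882 tested genes, and the median was 0.22. Of the 3831 tested genes above 32 CPM 38 were called higher and 1718 had a positive change, with a median of -0.04. RPL31 had 889, 670.0 and 518 CPM in Actin KO and 1380.1, 1423 and 1404 CPM in ACTB-mut (log2 difference 1.02, SE 0.17, adjusted p = 0.00865). RPL41 went from 8313 ± 400.2 to 10280.3 ± 141 CPM (log2 difference 0.31, adjusted p = 0.0488), RPLP0 from 5924 ± 252 to 7444 ± 399.8 CPM (log2 difference 0.33, adjusted p = 0.0486) and RPL27 from 979 ± 73.5 to 1329 ± 7.13 CPM (log2 difference 0.44, adjusted p = 0.0312), and RPL23, RPL5 and RPS27 also rose. RPS27 had 125, 164 and 129 CPM in Actin KO and 415, 441 and 205 CPM in ACTB-mut, with replicate 3 nearest the Actin KO range (log2 difference 1.34, adjusted p = 0.0119). With offsets 3 of the 82 were called and the median was 0.13, and without Actin KO replicate 3 it was 0.13. Ribosomal protein genes have many near-identical pseudogenes, between which estimated counts may be split, so single members are uncertain. RPL41, RPLP0, RPL27 and RPL23 lost the call with any 1 library left out, RPL5 in 5 and RPS27 in 4 of the 6 fits. Of 46 translation factors EEF1B2, an exchange factor of elongation, rose (log2 difference 0.63, adjusted p = 0.0153), and was not called with offsets, and of 70 ribosome biogenesis genes PWP2 and RRP1B fell, neither with offsets. Mitochondrial ribosomal proteins had a median of 0.14 with 0 of 79 called, and cytosolic tRNA synthetases one of -0.04 with 0 of 23.

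Mitochondrially encoded transcripts had the highest median of those lists, with values that differed between the ACTB-mut libraries. Of 15 tested, 4 rose and 0 fell, and the median was 1.02. MT-CO1, a cytochrome c oxidase subunit, had 447, 306 and 269 CPM in Actin KO and 739, 819.6 and 1382 CPM in ACTB-mut (log2 difference 1.52, adjusted p = 0.0119), and MT-CYB, cytochrome b, had 50.9, 57.6 and 48.2 CPM and 113, 108 and 195 CPM (log2 difference 1.41, adjusted p = 0.00729). MT-ND5 had 149, 151 and 161 CPM and 259, 237 and 479 CPM, and MT-ND2 49.3, 43.9 and 57.1 CPM and 76.8, 93.3 and 148 CPM. In all 4 genes ACTB-mut replicate 3 was the highest library, and without it the list median was 0.31. MT-CO1 lost the call without Actin KO replicate 2 or 3 and MT-CYB without Actin KO replicate 3. With offsets 2 of the 4, MT-CO1 and MT-CYB, remained called and the median was 0.67. The nuclear-encoded oxidative phosphorylation genes had a median of 0.13 without offsets and of 0.00 with them, and 1 of 77 was called, NDUFV3, lower. Replication-dependent histone RNAs, most of which lack a poly(A) tail, had a summed level of 2905 to 3248 CPM in Actin KO and 3956 to 4574 CPM in ACTB-mut. Most of this sum was 1 gene, H4C3, which rose from 2916 ± 182 to 4095 ± 343 CPM (log2 difference 0.49, adjusted p = 0.0164, and adjusted p = 0.388 with offsets). It was the 1 of 11 tested histone genes called, and the list median was 0.40 without offsets and 0.22 with them. The part of RNA quality or poly(A) selection in these values was not tested.

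Of the peroxiredoxin and thioredoxin genes 3 rose. Besides PRDX1, TXNRD1, the cytosolic thioredoxin reductase, went from 253 ± 33.4 to 397 ± 42.3 CPM (log2 difference 0.65, adjusted p = 0.0237) and NQO1, a quinone reductase, from 194 ± 26.99 to 301 ± 37.5 CPM (log2 difference 0.63, adjusted p = 0.0477). The pseudogene RPL18AP3 lies within TXNRD1 on the same strand and was not called, and the sum of both went from 3950.3 to 4212 CPM, so reads split between them could move the TXNRD1 value. The genes that rose made 3 of 26 tested members, 21 of which had a positive change, with a median of 0.18 and of 0.16 with offsets, where NQO1 was not called (adjusted p = 0.221). In 12 of the 26 the libraries did not overlap upwards, against 9.31% of all tested genes, and 7225 of all 13882 changes were positive. FTL, the ferritin light chain, which is outside the list and was picked after its value was seen, also rose (log2 difference 0.79, adjusted p = 0.015). Among 21 endoplasmic reticulum chaperones HSP90B1 rose, from 59.5 ± 9.86 to 123 ± 6.72 CPM (log2 difference 1.04, adjusted p = 0.0173), with a list median of -0.02. The secreted Wnt antagonist DKK1 went from 401 ± 7.87 to 569 ± 13.4 CPM (log2 difference 0.50, adjusted p = 0.0172) and the growth factor BMP4 from 169 ± 20.97 to 253 ± 34.03 CPM (log2 difference 0.58, adjusted p = 0.0486); DKK1 was not called with offsets (adjusted p = 0.411), and both stood higher in ACTB-WT, at 864 ± 18.5 and 769 ± 39.4 CPM. KRT17 had 54 counts over the Actin KO libraries and 3 over ACTB-mut, a ratio of 21.6 (exact 95% counting interval 7.01 to 108), and was the 1 of 14 keratins called; with offsets it missed the threshold (adjusted p = 0.0526). Of these genes TXNRD1, NQO1, HSP90B1, DKK1, BMP4 and KRT17 each lost the call in at least 4 of the 6 leave-one-out fits.

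Glycolysis and hypoxia genes (median -0.25, 0 of 41 called) and intestinal differentiation genes (-0.39, 0 of 11) had negative medians that moved to -0.10 and -0.24 with offsets. The 44 DNA replication genes had a median of 0.12 and 1 called, the helicase subunit MCM7, which fell from 1052, 1015 and 1081 CPM to 671, 675 and 705 CPM (log2 difference -0.62, adjusted p = 0.0042). Mitosis genes (-0.12, 0 of 41), p53 targets (0.11, 0 of 23), cholesterol synthesis (-0.10, 0 of 24) and ATF4 and serine synthesis genes (0.00, 0 of 22) had no called member either. In RNA from a whole culture, fewer cells of a kind and less RNA per cell cannot be told apart.

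**Figure D4:**
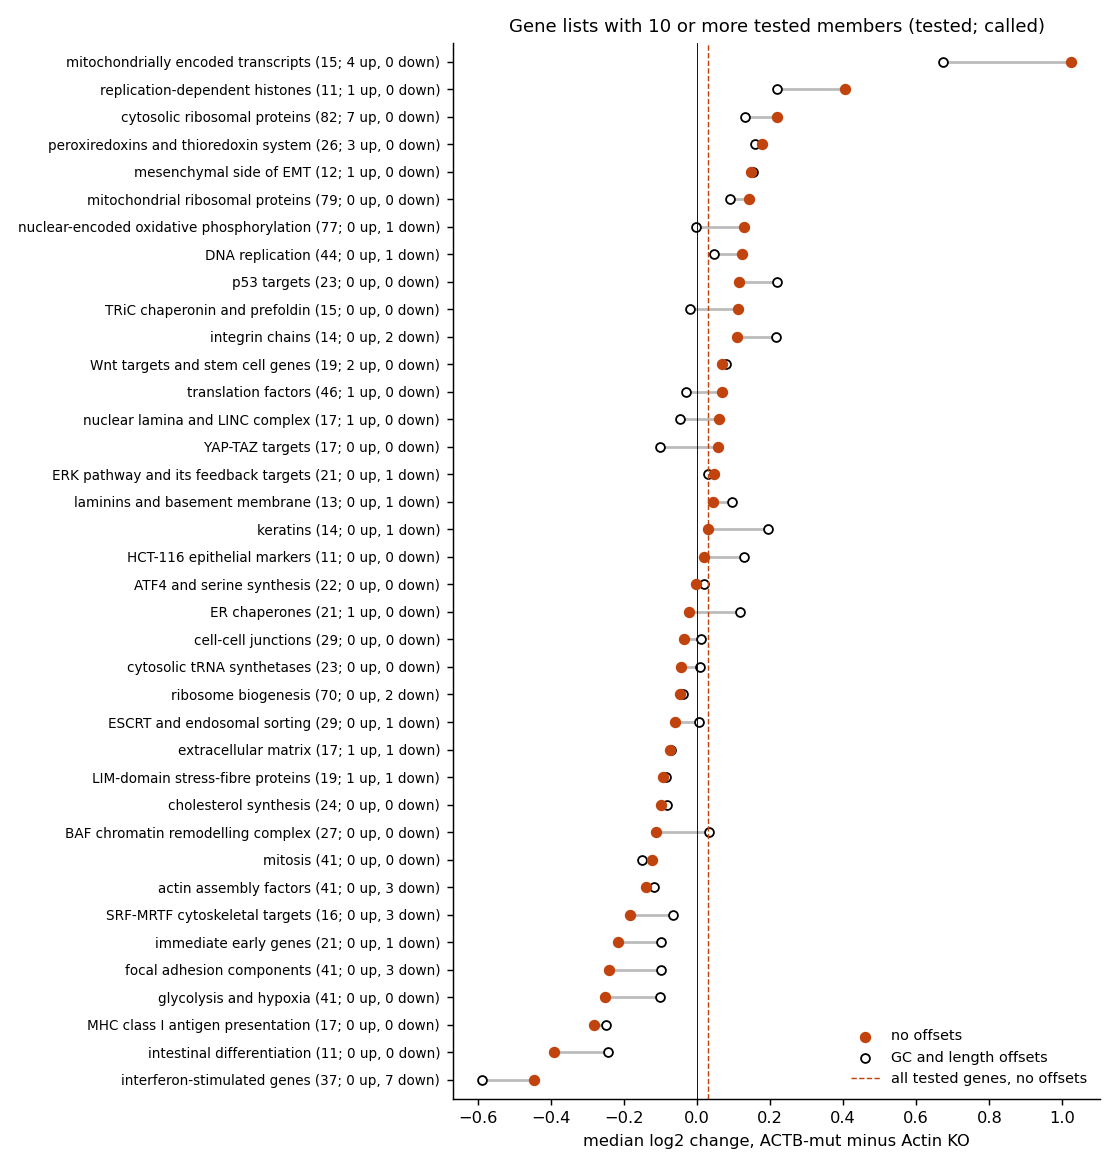
Median log2 change of ACTB-mut against Actin KO for gene lists with 10 or more tested members, without offsets (filled) and with GC and length offsets (open); labels give the members tested and called each way, and the dashed line marks the median of all tested genes (0.03). Interferon-stimulated genes lie lowest in both fits and mitochondrially encoded transcripts highest, and the medians of focal adhesion and glycolysis genes move towards 0 with offsets.

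The changes were not spread evenly over the genome. Genes with a mean of at least 10 CPM were placed in windows of 10 Mb, and the 142 windows with at least 15 genes were ordered by their median log2 change with GC and length offsets, an order looked at after the calls were known. The 6 lowest and the 2 highest windows all lay on chromosomes 7 and 21, with medians from -0.55 to -0.37 and of 0.47 and 0.60, whereas the 130 windows elsewhere ran from -0.19 to 0.25. Chromosome 7 holds 4.75% of the tested genes and 26.5% of the genes called lower (22 of 83), and chromosome 21 holds 1.09% and 6.02% (5 of 83). Outside both, 98 genes were called, 42 higher and 56 lower. The stretches below were delimited after the values were seen, so they are described with no test. Over all 7118 genes at 10 CPM or more, libraries did not overlap upwards in 10% and downwards in 13.2%.

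ACTB itself lies at a step on the short arm of chromosome 7. Of the 32 genes between the end of the short arm and ACTB, 31 had a positive log2 change, with a median of 0.67 (0.90 with offsets), and in 19 the ACTB-mut libraries lay wholly above Actin KO. The median of these genes against the mean of the 6 libraries was -0.40, -0.39 and -0.26 in Actin KO replicates 1 to 3 and 0.32, 0.43 and 0.43 in ACTB-mut. PSMG3, a proteasome assembly chaperone, rose from 27.2, 37.3 and 34.7 CPM to 65.2, 73.7 and 67.99 CPM (log2 difference 1.06, adjusted p = 0.0331), and it and SUN1 were the 2 genes called, both lost with any 1 library left out. FBXL18, the last gene at 10 CPM or more before ACTB, had 38.7, 44.8 and 41.8 CPM and 50.4, 78.2 and 79.3 CPM (log2 difference 0.73, adjusted p = 0.164). On the other side of ACTB, 17 of 18 genes up to 10 Mb had a negative change (median -0.45, -0.46 with offsets), beginning with FSCN1, the next such gene, which fell from 361, 344 and 343 CPM to 229.9, 268 and 239.6 CPM. RAC1, a GTPase of lamellipodia in that stretch, had 1230.4, 1148 and 1308 CPM and 939.8, 836 and 978 CPM (log2 difference -0.42, adjusted p = 0.11). The sign of the group difference thus turned between neighbouring genes at the targeted locus, from FBXL18 (0.73) and ACTB (1.11) to FSCN1 (-0.51).

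Further along chromosome 7 the 79 genes from 10 to 70 Mb had a median of 0.02, the 41 from 70 to 80 Mb one of 0.40 (34 positive, 12 wholly above Actin KO) and the 146 from 100 Mb to the end one of -0.48 (126 negative, 59 wholly below). In the last stretch the medians of single libraries were 0.27, 0.27 and 0.24 in Actin KO and -0.21, -0.20 and -0.28 in ACTB-mut, and 15 genes were called, all lower. They include MCM7, VGF, CAV1 and ZYX named above, and IMPDH1, the enzyme that commits purines to guanine nucleotides, which fell from 387, 355 and 390.2 CPM to 172, 195 and 197 CPM (log2 difference -1.01, SE 0.12, adjusted p = 0.00114). The remaining 10 are POLR2J, HIPK2, TNPO3, MOSPD3, PLOD3, ATP6V1F, AGAP3, SH2B2, FASTK and GNB2, with log2 changes from -1.42 to -0.65; HIPK2, MOSPD3, AGAP3 and GNB2 missed the threshold with offsets. From 70 to 80 Mb HSPB1, the small heat shock protein, was called higher, with 1842, 2009 and 2129 CPM in Actin KO and 2641, 2719 and 2698 CPM in ACTB-mut (log2 difference 0.43, adjusted p = 0.0203). On chromosome 21 the 33 genes from 40 Mb to the end had a median of -0.75 (-0.51 with offsets), with 31 negative and 17 wholly below Actin KO. NDUFV3, a subunit of respiratory complex I, fell there from 367, 312 and 397 CPM to 214, 133 and 174 CPM (log2 difference -1.05, SE 0.17, adjusted p = 0.00721), and RRP1B, AGPAT3, PWP2 and UBE2G2 were also called lower, of which UBE2G2 remained called with offsets.

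Leaving out any 1 of the 6 libraries kept the median of these stretches between 0.59 and 0.78 before ACTB, between -0.55 and -0.44 just after it, and between -0.48 and -0.45 from 100 Mb on. ACTB-WT, which shares the Actin KO libraries, had medians against Actin KO of 0.97, -0.36, 0.63 and -0.41 for the same 4 stretches of chromosome 7. On chromosome 21 from 40 Mb to the end its median was -0.40, and from the start to 40 Mb it was -0.59, against 0.09 in ACTB-mut. In the SETD3 table, whose lines have no actin construct per their labels, the medians of the 32 genes before ACTB were 0.03 and -0.09 in KO1 and KO2 against control, and those of the 146 genes from 100 Mb on 0.04 and 0.01. On chromosome 21 they were -0.02 and -0.23 up to 40 Mb and -0.02 and -0.25 from there on, so KO2 was lower than its control along that chromosome. Of the 28 genes called in all 8 fits, 3 lie on chromosome 7 (VGF, IMPDH1 and MCM7) and 1 on chromosome 21 (NDUFV3), and FSCN1, ZYX, CAV1, SUN1, POLM and ICA1 of the gene groups above lie on chromosome 7 as well. No DNA measurement was used here, and whether position moved these values was not tested.

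**Figure D5:**
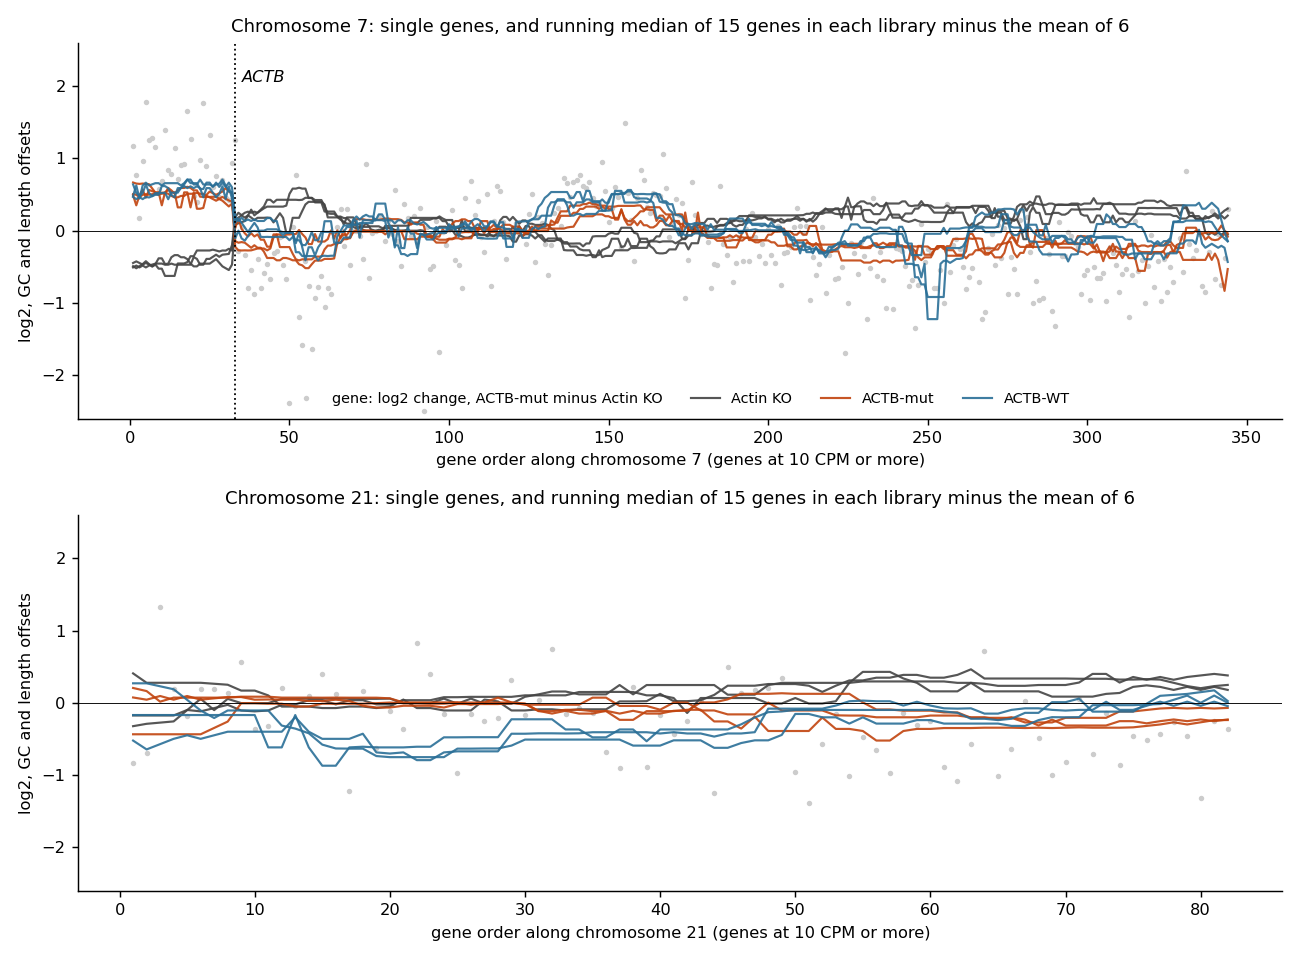
Genes at 10 CPM or more in their order along chromosomes 7 and 21, after GC and length offsets: grey points are single genes (log2 change, ACTB-mut minus Actin KO, drawn at the edge where beyond the axis), and lines are running medians of 15 genes in each library, set against the mean of the 6 libraries and broken at ACTB. Before ACTB the Actin KO lines lie below 0 and those of both add-backs above it, and along the end of chromosome 7 the ACTB-mut lines lie mostly below those of Actin KO.

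Of the 43 genes taken by size of change or by being called in all 8 fits, 21 differed between ACTB-mut and ACTB-WT in the same edgeR fit (1.24% of all tested genes did), and 14 with GC and length offsets. The 43 were picked by their ACTB-mut values, and the same ACTB-mut libraries enter this contrast. Their share is therefore raised by the selection and cannot be compared with that of all tested genes. HGS, ARAF, EHMT2, EVL and LAMA5 were lower in ACTB-mut than in ACTB-WT while ACTB-WT did not differ from Actin KO beyond the threshold (adjusted p = 0.604, 0.756, 0.984, 0.562 and 0.989). PRDX1, MT-CO1, MT-CYB and RPL31 were higher in ACTB-mut than in ACTB-WT, again with no call of ACTB-WT against Actin KO. PDLIM5, CFD, MDK, FOSL1, OAS3, IFI6 and ABHD14B were called in the same direction in both add-backs, and their difference between the add-backs ranged from -0.19 to 0.60 with none called. Both comparisons rest on the same 3 Actin KO libraries, so the direction they share is not independent.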

How the data were processed

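The authors deposited RSEM expected counts per gene, made from poly(A) RNA sequencing reads. Per the submitters' processing notes the tools were Trim Galore 0.4.5, cutadapt 1.15, RSEM 1.2.28 and Bowtie2 with genome GRCh38; their annotation release and strand setting are not given in the sources used here. The expected counts were rounded to whole numbers. Gene positions, exon length and GC content came from GENCODE 29.

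All 3 groups of the table were fitted together with edgeR 4.0.16 in R 4.3.3 (filterByExpr, TMM scaling, robust quasi-likelihood F test, Benjamini-Hochberg adjustment over 13882 genes). All adjusted p-values in the text are from this edgeR test, and each log2 change is the fitted one, its SE being its size divided by the square root of F. GC and length offsets were smooth trends per library fitted with mgcv 1.9.3. Other tools tried were DESeq2 1.42.0 and limma 3.58.1, and tables and plots were made in Python 3.11.15.

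Named genes were the 12 called genes with the largest rise and the 12 with the largest fall, provided that the higher group reached 5 CPM and the libraries did not overlap, the genes called in all 8 fits, the called list members (the 4 most abundant of a list with values) and 4 fixed genes: ACTB, ACTG1, SETD3 and SMARCA4. A few genes that these rules name are not reported here. Members and lists were chosen with earlier results of these data known. Promoters were matched by symbol to a RefSeq table (GRCh38.p14).

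Replicates within a group differed beyond sampling noise. On data simulated for ACTB-mut against Actin KO (13108 genes), the test recovered 32 of 50 genes changed by -2 on the log2 scale, 11 of 50 by -1, 19 of 50 by 1 and 40 of 50 by 2, with 3 false calls among 105. The simulated libraries had no GC trend and no shared replicate structure, and only genes at 5 CPM or more were changed. The 3 false calls therefore do not measure false calls in the real libraries. With a GC trend added to the simulated ACTB-mut libraries (r = -0.75), 620 genes were called without offsets and 111 with them. The changed genes were still in these data, so both counts include them. The added trend was the same in each simulated ACTB-mut library and stronger than the real one (r = -0.34). These counts therefore do not measure how the offsets act on the real libraries. Counting intervals are exact and cover counting error only.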

Additional observations from a re-analysis of the deposited data

Results flagged for a closer look

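Of the 43 genes named by size of change or by being called in all 8 fits, 21 had an effect of ACTB-mut that differed from that of ACTB-WT. Both effects are taken against the same Actin KO libraries, so their difference is ACTB-mut minus ACTB-WT in the same edgeR fit, given here on the log2 scale for 20 of them. Higher in ACTB-mut were APOC1 (3.18), SPARC (4.39), MT-CO1 (1.75), PRDX1 (1.43), MT-CYB (1.42), VGF (0.71) and RPL31 (0.84). Lower in ACTB-mut were ARAF (-2.54), IFI27 (-1.36), HGS (-2.05), LAMA5 (-2.19), EVL (-2.58), LY6D (-7.59), EHMT2 (-1.73), NTSR1 (-0.95), NACC1 (-0.79), IMPDH1 (-0.55), LGALS3BP (-0.56), PTBP1 (-0.42) and MCM7 (-0.43). The adjusted p ran from 5.43e-10 for LY6D to 0.0466 for IFI27. The 43 genes were picked by their ACTB-mut values, and the same ACTB-mut libraries enter this difference, so the count of 21 is raised by the selection. With GC and length offsets 13 of the 20 remained past the threshold, and IFI27, LAMA5, NACC1, IMPDH1, LGALS3BP, PTBP1 and MCM7 did not.

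For SPARC and LY6D the size of the difference came with a change in ACTB-WT that was itself called. VGF fell in both add-backs, by 1.91 in ACTB-mut and 2.62 in ACTB-WT. HGS and EHMT2, in contrast, had differences close to their own ACTB-mut changes (-2.31 and -1.70). IMPDH1 and MCM7 lie on the end of chromosome 7 described above.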

How the results depend on the processing

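The count of 128 called genes (45 higher, 83 lower) was 371 (144 and 227) with no filter on low counts, 365 (114 and 251) with DESeq2 and 195 (65 and 130) with limma-voom, and the cause of these differences was not tested. It was 127 with DESeq2 size factors, 126 with upper-quartile scaling, 175 at 5 CPM or more in 3 libraries, 86 with only the 2 groups in the fit, 98 with GC and length offsets, 118 with GC offsets alone and 98 outside chromosomes 7 and 21. With the replicate number as a block it was 85 (27 and 58), and with the replicate block and the GC and length offsets together 43 (20 and 23). Deviations of same-numbered libraries correlated at 0.05, 0.12 and 0.15, and those of differently numbered libraries at -0.11 to -0.02. Each library thus correlated best with its own number. Within each number the same-number and other-number values nearly cancelled out, so they are not separate observations. The labels do not say that the numbers pair the samples, the main fit has no block for them, and whether replicates share a structure was not tested. Leaving out 1 library gave 34 to 77 calls: 59, 63 and 34 without Actin KO replicates 1, 2 and 3, and 55, 75 and 77 without ACTB-mut replicates 1, 2 and 3. The correlation with GC content (-0.17) was -0.34 above 32 CPM and -0.15 to -0.10 with 1 library left out, with its smallest size without Actin KO replicate 3. The fits with 1 library left out covered more genes, 14617 to 14755 against 13745. In the same 3828 genes above 32 CPM, r was -0.37 to -0.25 with 1 library left out. The median before ACTB (0.67) was 0.90 with offsets and 0.59 to 0.78 with 1 library left out, that from ACTB to 10 Mb (-0.45) was -0.55 to -0.44, that from 70 to 80 Mb (0.40) was 0.47 and 0.32 to 0.38, that from 100 Mb on (-0.48) was -0.48 to -0.45, and that of the end of chromosome 21 (-0.75) was -0.51 and -0.82 to -0.66. The position settings were chosen after seeing the data. Of the 43 named genes all kept their direction in every setting run. All were called genes whose libraries did not overlap between the groups, so their direction was largely fixed by the selection. Those that missed the threshold numbered 3 with GC and length offsets, 5 with limma-voom, 7 with the replicate block and 17 with the block and offsets. Of 46 list medians 20 moved by more than the spread between libraries with GC and length offsets and 4 with upper-quartile scaling. At 5 CPM or more in 3 libraries the fibroblast and the liver and kidney markers had no tested member. Depth limits what can be seen: at 1 to 5 CPM the variation between replicates was 88.9%, so a rare RNA had to change several-fold to be called.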
